A study of Mus musculus with 16 samples.

Results

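The respiratory chain of mitochondria is described here through the genes of its subunits in kidneys of Gulo-/- and wild type mice. Members were taken by symbol: the mitochondrial genes mt-Nd, mt-Co, mt-Cytb and mt-Atp, and the nuclear genes Nduf with a, b, c, s or v and a digit, Sdha to Sdhd, Uqcr, Cox4 to Cox8 and Atp5, without pseudogenes. This gave 97 of the 27998 genes in the tables, 13 encoded by mitochondrial DNA and 84 by nuclear DNA. All 97 had at least 1 UMI (unique molecular identifier, the count of 1 captured RNA molecule). The name rule also takes in Atp5s and Atp5sl, whose products are not subunits of ATP synthase.

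Single cells were sequenced in 2 libraries of Gulo-/- kidney and 2 of wild type kidney, all from strain C57BL/6. The product of Gulo carries out the final step of vitamin C synthesis, which mice can perform and humans cannot, and the title of the series concerns vitamin C deficiency. The sources used here give no age, diet or vitamin C supply. They also do not say how many animals a library holds, but the libraries of each genotype differed in sex (below) and so were not from the same animal. With 2 libraries per genotype, the spread behind the p-values also holds sex and depth. Kidneys were cut up, mixed and split between assays, and a second assay, bisulfite sequencing for DNA methylation, is used through the authors' table of regions.

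Electrons from food enter the chain at complex I (NADH dehydrogenase) or complex II (succinate dehydrogenase), pass through complex III (cytochrome bc1) to complex IV (cytochrome c oxidase) and end on oxygen. Complexes I, III and IV pump protons, and complex V (ATP synthase) makes ATP as the protons flow back. Complex II is built from nuclear genes only, and the other complexes join subunits from both genomes. Mitochondrial DNA is transcribed as long strands that are cut into single messengers, so levels of its messengers also depend on processing and decay. Kidney tubules, above all the thick ascending limb, reclaim salt with much ATP and are packed with mitochondria.

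The 2 Gulo-/- libraries held 10073836 and 88925323 UMIs, and the 2 wild type libraries 10208946 and 61688164. After filtering, 1849 and 12403 Gulo-/- cells and 1575 and 7006 wild type cells remained. Replicate 1 of each genotype was thus shallow and replicate 2 deep, and sex, read from Xist and Ddx3y, was male and female in Gulo-/- replicates 1 and 2 and female and male in wild type replicates 1 and 2. Gulo had 0 and 2 UMIs in Gulo-/- cells and 0 and 1 in wild type cells, too few to check the labels. The wild type libraries shared 986 barcodes against 33.5 expected, and the copies in wild type replicate 2 were left out. Clusters were named from markers of kidney cell types and carry "-like", and 5 classes had at least 20 cells in every library, namely proximal tubule-like, distal convoluted and connecting tubule-like (here distal), endothelial-like, macrophage and monocyte-like and thick ascending limb-like cells. Clusters were unevenly mixed: in proximal tubule-like cells, cluster 2 held 241 and 1484 Gulo-/- cells and 7 and 1 wild type cells, and cluster 5 held 5 and 2 Gulo-/- cells and 1138 and 2 wild type cells.

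The promoters of 3 members are printed here from RefSeq on build GRCm38.p6, from 250 bases before to 50 after the start of the gene. Cox6b1 and Cox6b2 encode alternative forms of one complex IV subunit, the second known for its place in testis and sperm, and Cox6b2 was the one member that passed the test between genotypes. Atp5e encodes the epsilon subunit of the ATP synthase stalk, and its promoter holds a region from the authors' methylation table. Capitals mark CTTCCGG, the reverse complement of the GABP motif CCGGAAG, and TGACCTT, the reverse complement of the ERR motif AAGGTCA.
Cox6b2, chr7:4753045-4753344, minus strand: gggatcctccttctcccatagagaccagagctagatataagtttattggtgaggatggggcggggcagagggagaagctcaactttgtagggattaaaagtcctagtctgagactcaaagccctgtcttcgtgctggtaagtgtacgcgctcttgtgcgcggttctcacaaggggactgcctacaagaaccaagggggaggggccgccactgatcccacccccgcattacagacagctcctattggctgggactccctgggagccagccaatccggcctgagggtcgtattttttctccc
Cox6b1, chr7:30626065-30626364, minus strand: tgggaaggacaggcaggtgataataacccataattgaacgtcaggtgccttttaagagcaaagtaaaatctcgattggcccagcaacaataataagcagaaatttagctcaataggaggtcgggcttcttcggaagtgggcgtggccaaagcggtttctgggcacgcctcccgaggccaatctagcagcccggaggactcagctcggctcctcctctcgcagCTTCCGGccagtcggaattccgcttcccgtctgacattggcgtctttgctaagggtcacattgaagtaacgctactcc
Atp5e, chr2:174464052-174464351, minus strand: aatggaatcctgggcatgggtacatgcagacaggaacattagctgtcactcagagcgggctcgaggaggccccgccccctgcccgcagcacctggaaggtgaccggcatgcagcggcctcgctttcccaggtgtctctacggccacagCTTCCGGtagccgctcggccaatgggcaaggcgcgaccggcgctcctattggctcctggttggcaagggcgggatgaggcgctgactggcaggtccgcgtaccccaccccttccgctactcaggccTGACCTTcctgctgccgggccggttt
The Cox6b2 window held 10 CpGs and none of the 4 motifs searched, the Cox6b1 window held 17 CpGs and the GABP motif, and the Atp5e window 22 CpGs and both the GABP and the ERR motif. No match says only that these letters are not in this window.

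RefSeq windows were found for 69 of the 84 nuclear genes, 75 windows in all. On either strand, NRF1's GCATGCGC was in 13.3% of the member windows and in 2.71% of all 32851 windows. GABP's CCGGAAG was in 21.3% against 8.86%, ERR's AAGGTCA in 10.7% against 4.72% and YY1's GATGGCGG in 12% against 1.70%. At least 1 of these 4 motifs was in 44% of the member windows and 16.6% of all windows. NRF1, GABP, ERR and YY1 are factors known to act on nuclear genes of the respiratory chain. Member windows had a median of 19 CpGs, against 7 in all windows, and the shares were not adjusted for base composition, so they are a description.

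Across the cell classes, taken whole, nuclear subunits of complexes I, III, IV and V were highest in thick ascending limb-like cells in every library. Those of all 5 complexes were low in endothelial-like, immune and erythroid-like cells. Summed over the 84 genes, they made up 13.2% and 13.02% of the non-mitochondrial UMIs of Gulo-/- thick ascending limb-like cells, and 15.5% and 13.1% in wild type. In proximal tubule-like cells, which reabsorb most of the filtrate, the share was 10.4% and 10.7% in Gulo-/- and 11.5% and 9.35% in wild type libraries. Distal convoluted and connecting tubule-like cells had 10.9% and 11.7% in Gulo-/- and 12.9% and 12.1% in wild type. The values of thick ascending limb-like and distal cells did not overlap, since the lowest of the first was 13.02% and the highest of the second 12.9%, whereas distal and proximal values did overlap. This narrow gap depended on the clustering. With the members left out of it, Gulo-/- thick ascending limb-like cells averaged 12.49% ± 0.35 and wild type distal cells 12.48% ± 0.58 (SD, n = 2 libraries). The values of these classes then overlapped. This order holds for whole classes and not for single clusters. Distal cluster 16 had 17.4% and 18.6% in Gulo-/- and 15.6% in wild type replicate 2. Thick ascending limb-like cluster 7 had 16.4% and 16.9% in Gulo-/- and 17.8% and 13.3% in wild type. Thick ascending limb-like cluster 3 had 11.8% and 11.9% in Gulo-/-. Intercalated cell-like cells, which secrete acid or base, had 11.1% and 10.99% in Gulo-/- and 12.5% in the wild type library with at least 20 of them. Principal cell-like cells, which reabsorb sodium and water in the collecting duct, were lower, at 7.39% and 7.49% in Gulo-/- and 6.92% in wild type.

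Endothelial-like cells had 3.33% and 3.93% in Gulo-/- and 3.20% and 3.80% in wild type libraries. Macrophage and monocyte-like cells had 2.26% and 3.45% in Gulo-/- and 1.92% and 3.23% in wild type. These neighbours in the order overlapped. The order was also seen complex by complex. Complexes were assigned by symbol, so complex I holds Ndufa4, now assigned to complex IV, and complex V holds Atp5s and Atp5sl. Complex I subunits averaged 4.01% ± 0.39 of non-mitochondrial UMIs in thick ascending limb-like cells, 3.29% ± 0.21 in proximal tubule-like, 1.20% ± 0.11 in endothelial-like and 0.817% ± 0.222 in macrophage and monocyte-like cells (SD, n = 4 libraries). Complex V subunits averaged 3.67% ± 0.50, 2.69% ± 0.30, 0.915% ± 0.086 and 0.741% ± 0.190 in the same 4 classes (SD, n = 4 libraries). Complex II, with 4 genes, averaged 0.241% ± 0.048 in thick ascending limb-like and 0.230% ± 0.036 in proximal tubule-like cells, within their spread (SD, n = 4 libraries). In Gulo-/- libraries proximal tubule-like cells were slightly the higher, at 0.193% and 0.232%, with thick ascending limb-like cells at 0.191% and 0.229%.

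**Figure D1:**
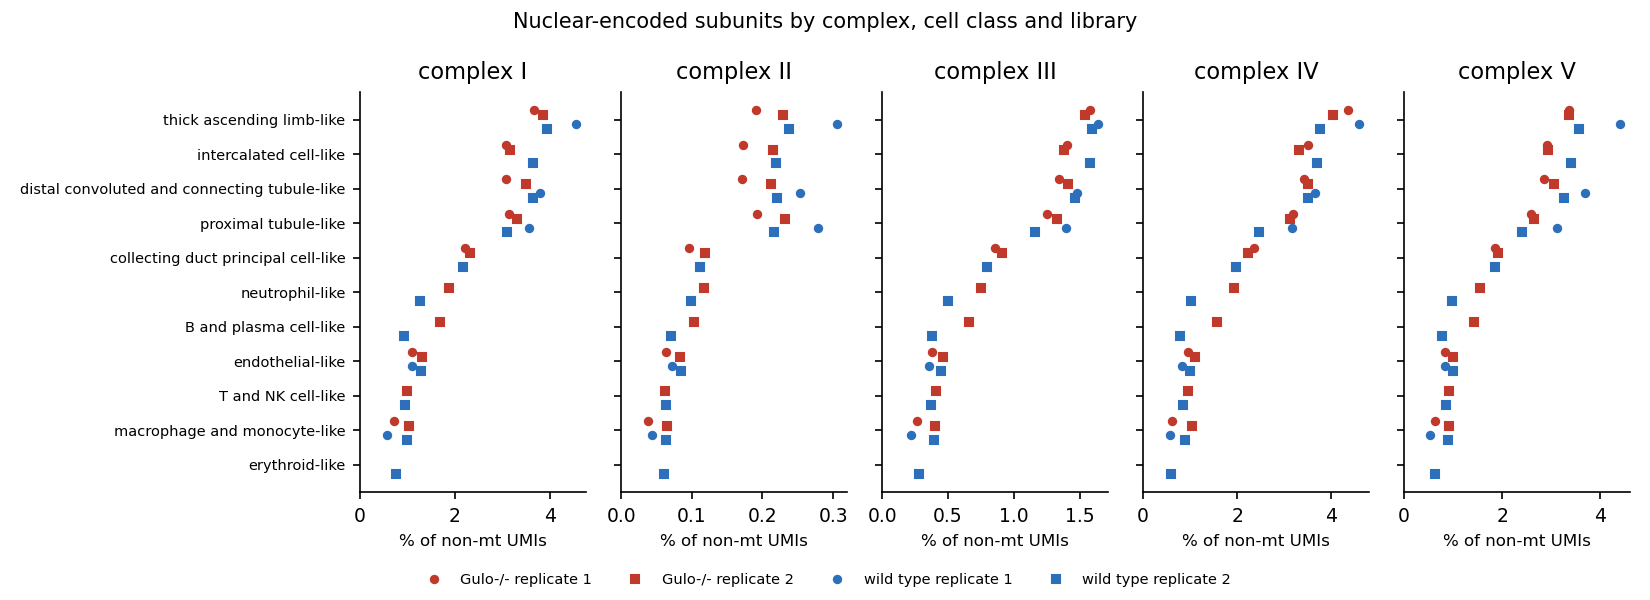
Each point is 1 library's share of non-mitochondrial UMIs (x axis, percent, starting at 0) from the nuclear-encoded subunits of complexes I to V, for cell classes with at least 20 cells in that library, Gulo-/- above wild type in each row. Thick ascending limb-like cells lie farthest right for complexes I, III, IV and V, and immune, endothelial and erythroid classes lie at the left, with complex I averaging 4.01% and 0.817% in thick ascending limb-like and macrophage and monocyte-like cells.

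Mitochondrially encoded messengers were highest in thick ascending limb-like and distal cells, and 1 library, wild type replicate 2, was the highest in each of the 5 tested classes. Their share of all UMIs in proximal tubule-like cells was 19.6% and 19.9% in Gulo-/- and 15.9% and 21.1% in wild type libraries. Thick ascending limb-like cells had 34.8% and 25.4% in Gulo-/- and 26.7% and 35.9% in wild type. Distal convoluted and connecting tubule-like cells had 31.3% and 26.1% in Gulo-/- and 21.1% and 34.7% in wild type. In all 3 epithelial classes the genotypes overlapped, with wild type replicate 2 highest.

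Endothelial-like cells had 11.2% and 9.95% in Gulo-/- and 10.7% and 24.5% in wild type libraries. Macrophage and monocyte-like cells had 10.2% and 9.35% in Gulo-/- and 11.2% and 20.4% in wild type. Here too the high value was that of wild type replicate 2. Summed counts of 17 proximal tubule markers were also highest in that library: in endothelial-like cells they were 1138 and 978 CPM (counts per 1000000 non-mitochondrial UMIs, the scale of all levels below) in Gulo-/- libraries and 2718 and 7442 in wild type. In macrophage and monocyte-like cells these markers were at 981 and 911 in Gulo-/- and 1054 and 6830 in wild type libraries, and the part of such RNA in the mitochondrial shares was not tested. Barcodes over the limit of 50% mitochondrial UMIs, left out above, were 35.4% and 17.0% of the Gulo-/- barcodes and 23.1% and 28.6% of the wild type ones.

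**Figure D2:**
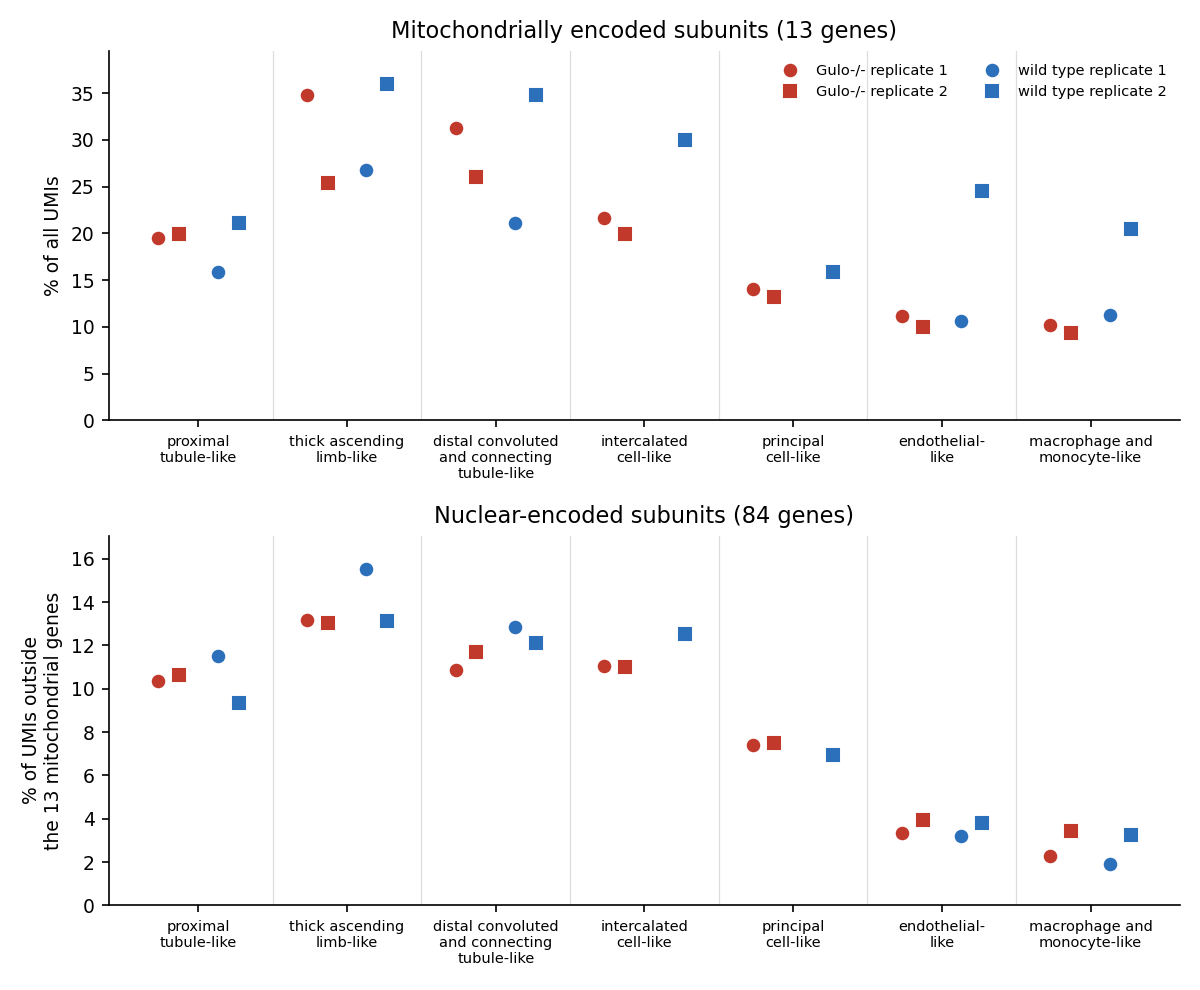
The upper panel plots the share of all UMIs from the 13 mitochondrially encoded subunits and the lower panel the share of non-mitochondrial UMIs from the 84 nuclear-encoded ones (y axes, percent, from 0), 1 point per library and cell class with at least 20 cells, Gulo-/- left of wild type. Wild type replicate 2 is the highest point of the upper panel in each class, for example 24.5% in endothelial-like cells.

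Within the mitochondrial messengers, the make-up differed between the genotypes in the same direction in every class tested. mt-Co1, the catalytic subunit of complex IV, made up 16.5% and 14.2% of mitochondrial UMIs in Gulo-/- proximal tubule-like cells, against 9.58% and 6.95% in wild type. In thick ascending limb-like cells it made up 20.9% and 18.5% in Gulo-/- and 15.3% and 12.3% in wild type libraries. Both Gulo-/- libraries lay above both wild type libraries in these classes. The same held in distal cells (22.0% and 19.9% in Gulo-/-, 14.8% and 11.1% in wild type). It also held in endothelial-like cells, at 12.6% and 14.6% in Gulo-/- and 8.56% and 6.00% in wild type libraries. Macrophage and monocyte-like cells had 11.97% and 14.8% in Gulo-/- and 8.58% and 6.16% in wild type.

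mt-Nd2, a core subunit of the proton-pumping arm of complex I, ran the other way. It made up 3.22% and 2.39% of mitochondrial UMIs in Gulo-/- proximal tubule-like cells and 4.995% and 5.03% in wild type. In macrophage and monocyte-like cells the values were 3.03% and 2.33% in Gulo-/- and 4.52% and 4.81% in wild type libraries. Both Gulo-/- libraries were below both wild type libraries in all 5 classes. The ratio of mt-Co1 to mt-Nd2 UMIs in proximal tubule-like cells was 5.14 and 5.91 in Gulo-/- and 1.92 and 1.38 in wild type libraries, and in thick ascending limb-like cells 7.37 and 8.50 in Gulo-/- and 4.06 and 3.02 in wild type. In macrophage and monocyte-like cells the ratio was 3.95 and 6.34 in Gulo-/- and 1.90 and 1.28 in wild type. The two-sided exact permutation p for mt-Co1 and for mt-Nd2 was 0.333 in each of the 5 classes and in all cells, which is the smallest value that 2 against 2 libraries can give, so no such share can pass a threshold of 0.05.

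The shares of mt-Nd1 and mt-Nd4, also of complex I, and of mt-Cytb, the mitochondrially encoded subunit of complex III, lay below wild type in all 5 classes. In proximal tubule-like cells mt-Nd1 made up 11.7% and 11.2% in Gulo-/- and 13.2% and 13.3% in wild type. mt-Nd4 made up 6.47% and 6.68% in Gulo-/- and 7.65% and 8.24% in wild type libraries there, and mt-Cytb 11.3% and 12.9% in Gulo-/- and 13.1% and 13.4% in wild type. These are shares of 1 total, so a higher share of mt-Co1 by itself lowers the others. mt-Atp6, the channel subunit of complex V, overlapped between genotypes in proximal tubule-like cells, at 20.8% and 23.0% in Gulo-/- and 20.1% and 20.8% in wild type. mt-Co2 and mt-Co3, the other mitochondrial subunits of complex IV, did not go with mt-Co1: in proximal tubule-like cells mt-Co3 made up 19.7% and 20.6% in Gulo-/- and 21.6% and 21.2% in wild type libraries, and mt-Co2 overlapped at 7.72% and 7.38% in Gulo-/- and 7.63% and 9.23% in wild type. mt-Nd3 and mt-Nd5 of complex I overlapped too. mt-Atp8 of complex V went with the replicate number, and so with depth: it made up 0.297% and 0.0930% in Gulo-/- and 0.234% and 0.0514% in wild type proximal tubule-like cells, Gulo-/- being the higher at each number there and in all tested classes but the distal one, where this held at number 2 only. mt-Nd4l lay above wild type there, at 0.377% and 0.268% in Gulo-/- and 0.264% and 0.152% in wild type, and it overlaps mt-Nd4 on mitochondrial DNA, so reads of the pair may be split. mt-Nd6, which lies on the opposite strand, had only 4124 UMIs over all cells.

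**Figure D3:**
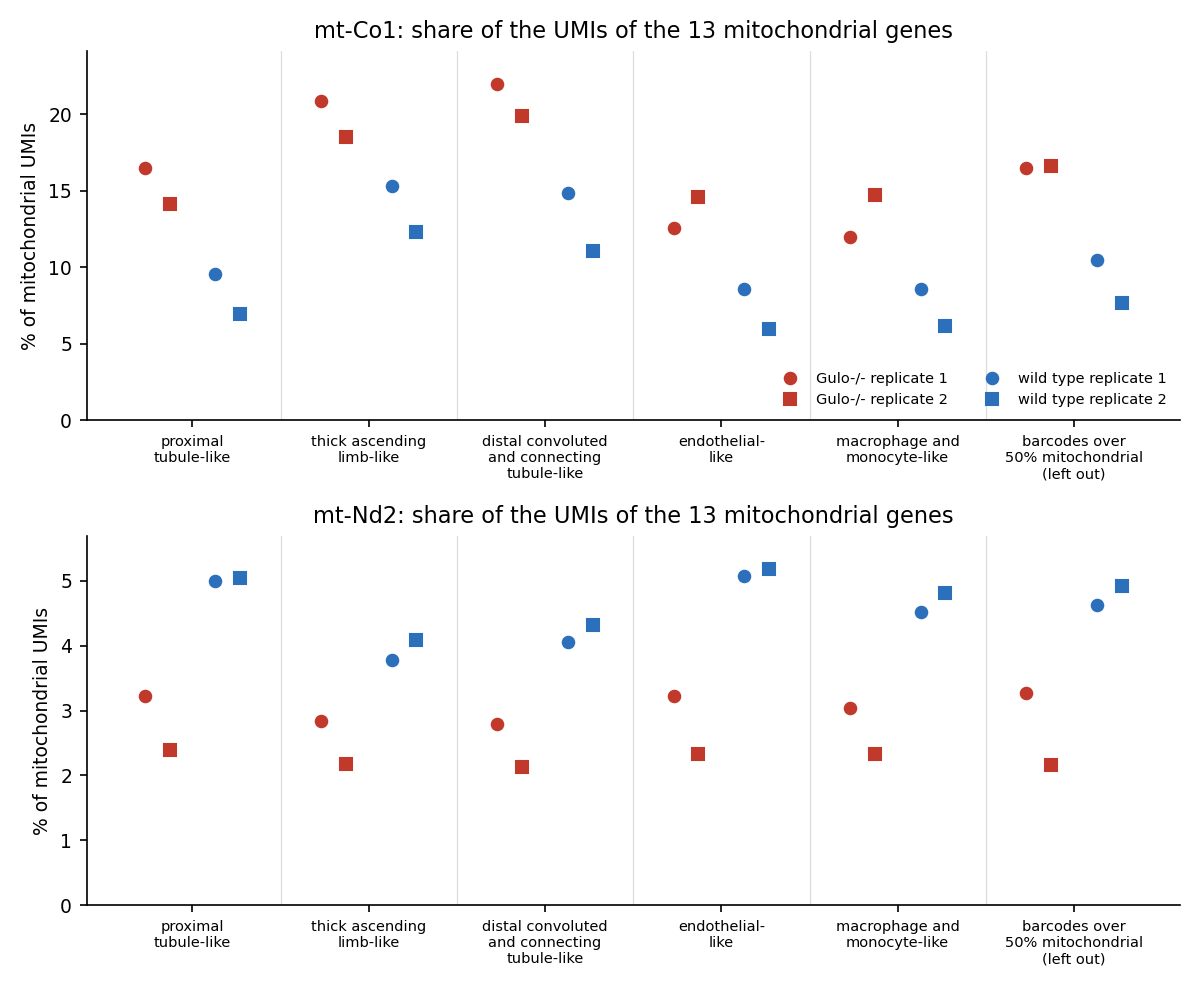
Each point is the share of the UMIs of the 13 mitochondrial genes (y axes, percent, from 0) that came from mt-Co1 (upper panel) or mt-Nd2 (lower panel) in 1 library, for the 5 tested classes and for barcodes over 50% mitochondrial UMIs, Gulo-/- left of wild type. In every column both Gulo-/- points lie above the wild type points for mt-Co1 and below them for mt-Nd2, as in proximal tubule-like cells with 16.5% and 14.2% against 9.58% and 6.95% for mt-Co1.

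In the count model over all genes, edgeR's quasi-likelihood test on UMIs summed per library and class, 0 of the 13 mitochondrial members passed an adjusted p of 0.05 in any of the 5 classes, and DESeq2 called 1, mt-Nd2 in endothelial-like cells. In proximal tubule-like cells mt-Co1 had a log2 change (Gulo-/- over wild type) of 0.87 ± 0.32 (SE over 2 libraries per genotype, edgeR adjusted p = 0.257). mt-Nd2 had -0.88 ± 0.33 there (edgeR adjusted p = 0.257). Unadjusted p was under 0.05 for 2 of 13 members in proximal tubule-like, thick ascending limb-like, distal and endothelial-like cells and for 6 in macrophage and monocyte-like cells. Over all genes this held for 1855 of 11140, 435 of 5798, 584 of 6648, 799 of 7127 and 375 of 4880 in these 5 classes, in the same order. The largest of these changes were those of mt-Nd2 in endothelial-like cells (log2 -1.77 ± 0.52, edgeR adjusted p = 0.263) and in macrophage and monocyte-like cells (-1.72 ± 0.41, edgeR adjusted p = 0.278). The median over the 13 members was -0.13, -0.05 and -0.09 in proximal, thick ascending limb-like and distal cells, and -0.98 and -0.80 in endothelial-like and macrophage and monocyte-like cells. Without wild type replicate 2, whose mitochondrial share was high in these last classes, the endothelial-like median was -0.17. mt-Nd2 was called by edgeR in distal cells without wild type replicate 1 (edgeR adjusted p = 0.00348) and in macrophage and monocyte-like cells without Gulo-/- replicate 1 (0.00518) or wild type replicate 1 (0.000419). Of the 13, 6 had negative values in all 5 classes (mt-Nd1, mt-Nd2, mt-Nd4, mt-Co2, mt-Co3 and mt-Cytb) and mt-Atp8 positive ones.

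Of the nuclear members, 75 could be tested in all 5 classes and 4 (Cox4i2, Cox7b2, Cox8b and Cox8c) in none. The filter on low counts left Atp5s, Cox6a2 and Ndufa4l2 in 1 class, Cox6b2 in 3 and Cox7a1 in 4. In proximal tubule-like cells 0 of 79 nuclear members were called (4 had an unadjusted p under 0.05, and DESeq2 called 1, Sdhc), beside 0.197% of all 11140 genes. In thick ascending limb-like cells 1 of 77 was called, beside 1.24% of 5798 genes. In distal convoluted and connecting tubule-like cells it was 1 of 77 beside 1.02% of 6648 genes, and 0 of 77 in endothelial-like cells beside 0.73% of 7127 genes (1 with an unadjusted p under 0.05 and 0 called by DESeq2). In macrophage and monocyte-like cells 0 of 75 were called beside 0% of 4880 genes, with 1 at an unadjusted p under 0.05 and 0 called by DESeq2. The member called in both tubule classes was Cox6b2. These shares are close to the background.

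Cox6b2 had 17.8 and 7.04 CPM in Gulo-/- thick ascending limb-like cells, against 94.9 and 34.9 in wild type. These values came from 4 and 91 UMIs in Gulo-/- and 12 and 22 in wild type libraries. It fell, with a log2 change of -2.66 and an SE of 0.60 over 2 libraries per genotype (edgeR adjusted p = 0.00599). In distal cells the levels were 4.90 and 5.99 in Gulo-/- and 37.8 and 38.6 in wild type, from 2 and 58 UMIs in Gulo-/- and 6 and 24 in wild type libraries. The change there was -2.77 ± 0.57 (SE over 2 libraries per genotype, edgeR adjusted p = 0.00568). Both Gulo-/- libraries were below both wild type libraries in both classes.

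Collecting duct classes, which were too few in wild type replicate 1 to test, also had lower values in both Gulo-/- libraries. Principal cell-like cells had 9.89 and 14.6 CPM of Cox6b2 in Gulo-/- and 101 in wild type replicate 2, and intercalated cell-like cells 7.92 and 10.7 in Gulo-/- and 47.7 in that wild type library. Proximal tubule-like cells, which held most Cox6b2 UMIs, did not follow, with 56.3 and 55.3 in Gulo-/- and 84.6 and 18.9 in wild type libraries. Their log2 change was -0.12 (edgeR adjusted p = 0.961), and the wild type libraries lay on either side of the Gulo-/- ones. The difference between classes was itself tested: the class-by-genotype interaction of Cox6b2 had an edgeR adjusted p of 0.00762, the 1 member among 94 tested to pass, beside 1.47% of all 10285 genes. The next lowest were mt-Nd3 (edgeR adjusted p = 0.172) and Ndufa4l2 (0.216). The interaction was not called without Gulo-/- replicate 2.

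Several measured values stand beside the Cox6b2 result. Outside the tubule, T and NK cell-like cells had 12.4 in Gulo-/- replicate 2 and 12.8 in wild type replicate 2, within the range of the Gulo-/- values of these tubule classes. Endothelial-like cluster 4 was lower in both Gulo-/- libraries, at 3.28 and 4.47 against 11.9 and 11.6 in wild type, from at most 12 UMIs each. In replicate 2, B and plasma cell-like cells had 5.81 in Gulo-/- and 16.5 in wild type, and neutrophil-like cells 9.88 and 15.8, from at most 2 UMIs each. Macrophage and monocyte-like cells overlapped, at 7.98 and 12.6 in Gulo-/- and 0 and 10.4 in wild type. Proximal tubule markers, at 940 and 768 CPM in Gulo-/- thick ascending limb-like cells and 909 and 6863 in wild type, were high in wild type replicate 2, and in distal cells they were at 1089 and 741 in Gulo-/- and 1196 and 6925 in wild type. The part of proximal tubule RNA in the Cox6b2 levels was not tested. Within thick ascending limb-like cluster 7, which every library had, Cox6b2 was at 0 and 8.50 CPM in Gulo-/- and 93.1 and 32.1 in wild type. Within distal cluster 22 the values were 0 and 4.19 in Gulo-/- and 47.9 and 3.96 in wild type, from at most 3 UMIs each, and overlapped. The distal class was made of different clusters, with 47 and 1076 Gulo-/- cells and 2 and 2 wild type cells in cluster 6. The thick ascending limb call was not made by DESeq2 (adjusted p = 0.294), with sex as a block (edgeR adjusted p = 0.0713), without Gulo-/- replicate 2 (0.537), without wild type replicate 1 (0.164) or without wild type replicate 2 (0.664). The distal call was not made by DESeq2 (adjusted p = 0.195), without Gulo-/- replicate 2 (edgeR adjusted p = 0.153) or without wild type replicate 2 (0.484).

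Cox6b2 lies at chr7:4751792-4753094 on GRCm38.p6, overlaps no other annotated gene there, and has Fam71e2 131 bases away. Its ubiquitous counterpart Cox6b1 showed no such gap. In thick ascending limb-like cells Cox6b1 had 3633 and 3867 CPM in Gulo-/- and 4364 and 3400 in wild type libraries, and in distal cells 2864 and 3231 in Gulo-/- and 3475 and 3138 in wild type. The genotypes overlapped in both.

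**Figure D4:**
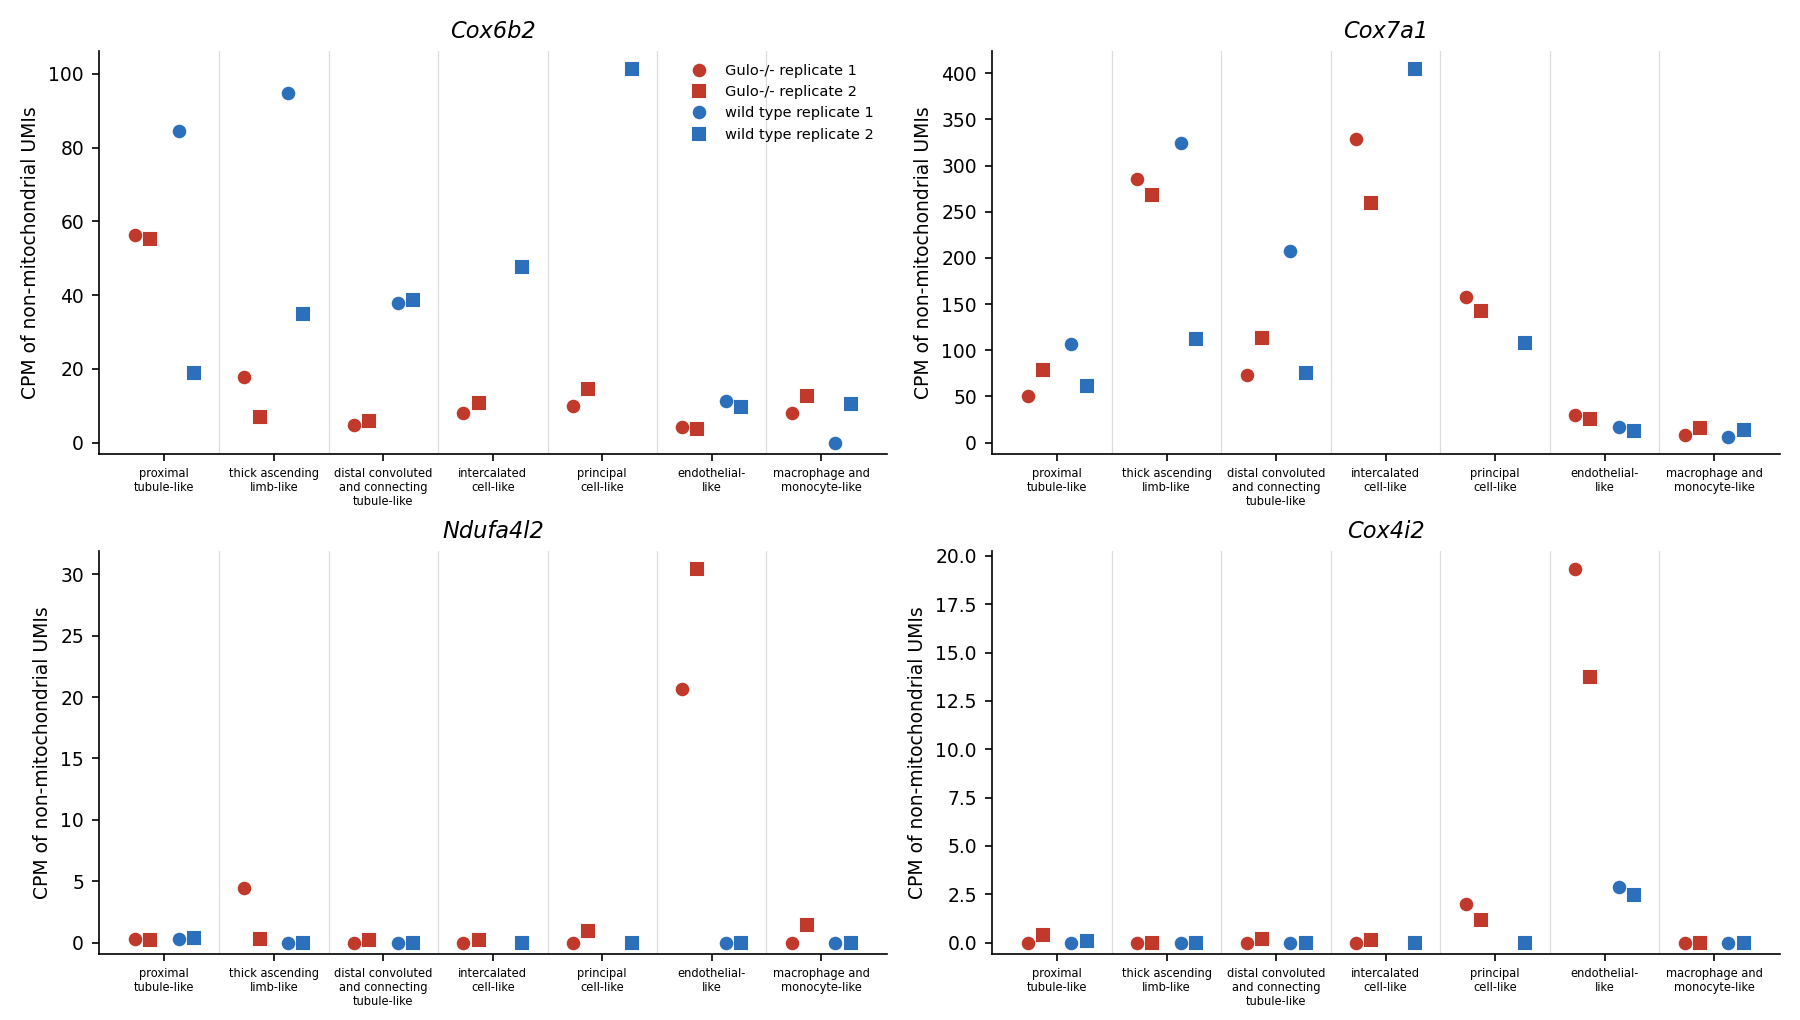
Levels of Cox6b2, Cox7a1, Ndufa4l2 and Cox4i2 (y axes, CPM of non-mitochondrial UMIs) are plotted for each library and cell class with at least 20 cells, Gulo-/- left of wild type. Cox6b2 is lower in both Gulo-/- libraries in the thick ascending limb-like and distal classes, and Ndufa4l2 and Cox4i2 stand out in Gulo-/- endothelial-like cells, at 20.7 and 30.4 and at 19.3 and 13.7.

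Other tissue-restricted forms were low in kidney, apart from Cox7a1 in some classes. Cox7a1, the heart and muscle form of a complex IV subunit, was highest in intercalated cell-like cells (329 and 260 CPM in Gulo-/-, 404 in wild type replicate 2) and in thick ascending limb-like cells (285 and 268 in Gulo-/-, 324 and 113 in wild type). In the authors' deposited table of cluster markers Cox7a1 was listed for both intercalated clusters, CD-IC2 with a natural log ratio of 0.792 (detected in 74.2% of its cells and 27% of others) and CD-IC1 with 0.379. Ndufs1, a complex I core subunit, was the other member listed there, for CD-IC1 at 0.296 in the authors' deposited table. Cox6a2, another heart and muscle form, was at 10.7 and 4.35 in Gulo-/- and 17.6 and 16.5 in wild type proximal tubule-like cells, both Gulo-/- libraries lower (log2 -1.43 ± 0.47, SE over 2 libraries per genotype, edgeR adjusted p = 0.225). Cox8b, a muscle form, had at most 9.65 CPM in any tested class and library. Cox7b2 and Cox8c, testis forms, had at most 0.0680 and 0.155 there.

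Endothelial-like cells held a pair of hypoxia-linked or lung-type forms in Gulo-/- libraries. Ndufa4l2, a relative of Ndufa4 known to be induced by HIF1 in low oxygen, had 15 and 124 UMIs in Gulo-/- and 0 and 0 in wild type endothelial-like cells. Against a floor of 3 counts over the wild type group it was at least 7.34-fold higher (edgeR adjusted p = 0.0794, not called). Cox4i2, the lung form of Cox4, was too low to test, with 14 and 56 UMIs in Gulo-/- and 1 and 1 in wild type, 5.54-fold with counting error limits of 1.48 and 46.7. Markers of stromal and mesangial cells moved with both: 11 such genes summed to 297 and 1977 UMIs in Gulo-/- endothelial-like cells, with 2 and 0 of them at 0, and to 1 and 8 in wild type, with 10 and 7 at 0. Pdgfrb, a defining marker of those cells, had 5 and 34 UMIs in Gulo-/- and 0 and 0 in wild type. Within cluster 25 of this class, Ndufa4l2 was at 87.3 and 46.8 CPM in Gulo-/-, and within cluster 4 at 8.19 and 22.0. Cluster 25 held 6.38% and 22.6% of the Gulo-/- cells of this class and 2.20% and 8.28% of the wild type cells. In cluster 17, which was not named, Ndufa4l2 was at 59.9 and 19.0 in Gulo-/- and 66.5 in wild type replicate 2. Cox4i2 was at 32.5 and 13.4 in Gulo-/- and 33.2 in wild type replicate 2 there. What part stromal or mesangial cells and the mix of clusters had in the Ndufa4l2 and Cox4i2 counts was not tested. Their common counterparts overlapped, Cox4i1 at 1396 and 1839 CPM in Gulo-/- and 1296 and 1434 in wild type, Ndufa4 at 843 and 1053 in Gulo-/- and 934 and 1048 in wild type.

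The remaining nuclear subunits tended to have negative log2 changes in the 3 epithelial classes, mostly small ones, none of which passed the test alone. Their median log2 change was -0.27 in proximal tubule-like, -0.23 in thick ascending limb-like and -0.28 in distal cells, where the median of all genes tested was 0.03, 0.03 and 0.01. These changes use the scaling of the test, which differs from the CPM scale of the printed levels. As a share of non-mitochondrial UMIs, the 84 genes averaged 10.51% in Gulo-/- and 10.44% in wild type proximal tubule-like cells. In thick ascending limb-like cells they averaged 13.1% in Gulo-/- and 14.3% in wild type, and in distal cells 11.3% and 12.5%. Both Gulo-/- libraries lay below both wild type libraries for 17 of 79 nuclear members in proximal tubule-like cells, beside 15.5% of all genes, for 35 of 77 in thick ascending limb-like cells, beside 19.6%, and for 37 of 77 in distal cells, beside 15.5%. They lay above for 11 of 79 beside 35.2%, for 3 of 77 beside 18.7% and for 10 of 77 beside 25.8%. In endothelial-like cells the median was -0.02, with 6 of 77 below beside 19% and 13 above beside 22.3%. In macrophage and monocyte-like cells it was 0.05, with 1 of 75 below beside 12.2% and 5 above beside 24.4%.

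Wild type replicate 1 weighed on the medians of the proximal tubule-like and thick ascending limb-like classes. Without it they were -0.01 in proximal tubule-like and -0.08 in thick ascending limb-like cells, and without wild type replicate 2 the proximal tubule-like median was -0.52. The distal median stayed between -0.38 and -0.17 over 16 settings, which included leaving out each library. Thick ascending limb-like cluster 7 held 34.55% and 24.26% of the Gulo-/- cells of that class and 72.34% and 96.45% of the wild type cells. Within it, summed nuclear members were 16.4% and 16.9% of non-mitochondrial UMIs in Gulo-/- and 17.8% and 13.3% in wild type. Within distal cluster 22 they were 11.3% and 13.3% in Gulo-/- and 12.5% and 10.4% in wild type. The genotypes overlapped in both clusters. A list of dissociation-induced genes was higher in both Gulo-/- libraries in proximal tubule-like cells, at 259 and 363 CPM in Gulo-/- 121 and 63.3 in wild type. It was also higher in both in thick ascending limb-like cells (727 and 1359 in Gulo-/-, 419 and 436 in wild type) and in distal cells (767 and 873 in Gulo-/-, 510 and 286 in wild type), the classes of the Cox6b2 calls. The 17 proximal tubule markers were lower in proximal tubule-like cells, at 22404 and 20092 in Gulo-/- and 33518 and 48771 in wild type libraries. The part of clusters, dissociation-induced genes and these markers in the medians was not tested.

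By complex, assigned by symbol as above, the log2 changes in the 3 epithelial classes had the following medians. No member other than Cox6b2 passed the test. Complex I had a median of -0.31 in proximal tubule-like cells (31 of 36 negative), -0.24 in thick ascending limb-like (28 of 36) and -0.31 in distal cells (30 of 36). Complex II had 4 of 4 negative in each of the 3 classes, with medians of -0.28, -0.33 and -0.36. Complex III had -0.30, -0.20 and -0.21 for 8 members. Complex V had -0.29, -0.24 and -0.29, with 16 of 17, 14 of 16 and 13 of 16 negative. Complex IV had -0.12, -0.02 and -0.20, with 9 of 14, 7 of 13 and 11 of 13 negative. No test of these differences between complexes was made.

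**Figure D5:**
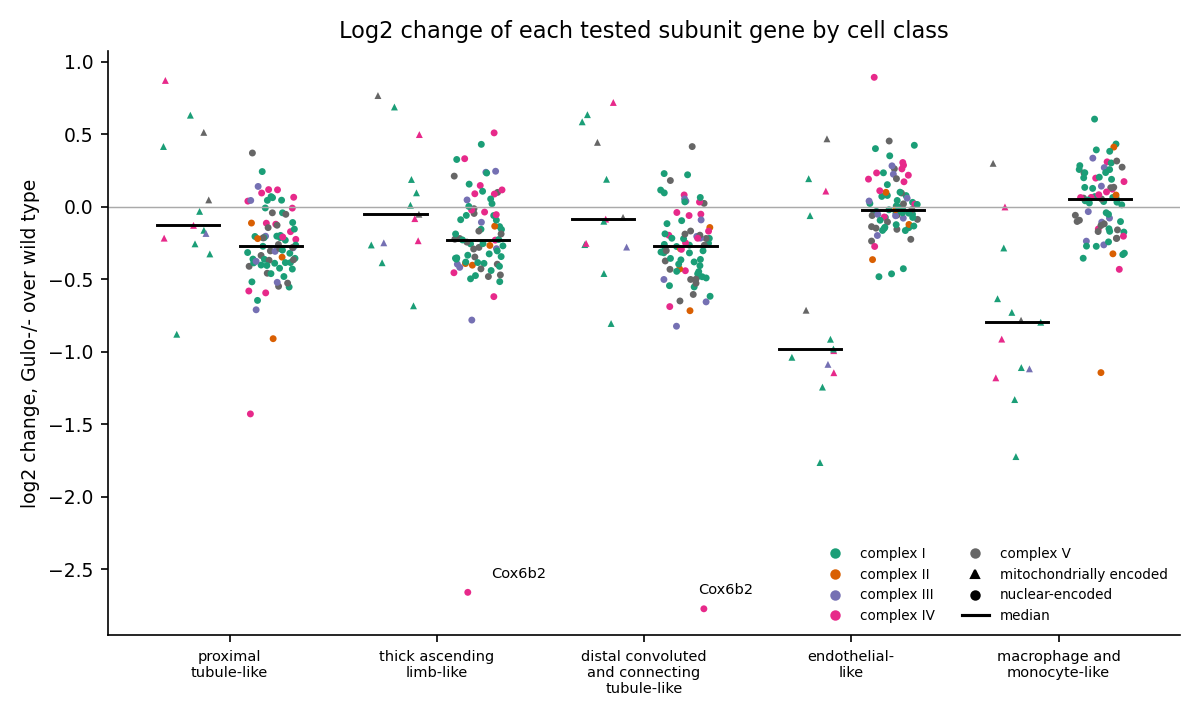
Each point is the log2 change (Gulo-/- over wild type, edgeR) of 1 tested subunit gene in 1 cell class, triangles for mitochondrially encoded and circles for nuclear-encoded genes, coloured by complex, with black bars at the medians. Ndufa4l2 in endothelial-like cells, with 0 wild type UMIs, is not drawn. Nuclear medians lie at -0.27, -0.23 and -0.28 in the 3 epithelial classes and near 0 in the other two, and Cox6b2 lies at -2.66 and -2.77 in thick ascending limb-like and distal cells.

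Complex I members differed among themselves. Ndufc2, an accessory subunit of the membrane arm, had 580 and 718 CPM in Gulo-/- proximal tubule-like cells and 900 and 889 in wild type. Its log2 change was -0.65 ± 0.26 (SE over 2 libraries per genotype, edgeR adjusted p = 0.282). Ndufs4, an accessory subunit needed for a stable NADH-oxidising module, was at 297 and 415 in Gulo-/- distal cells and 573 and 476 in wild type (log2 -0.62 ± 0.30, edgeR adjusted p = 0.523). Ndufs1, which carries iron-sulfur clusters, was at 107 and 162 in Gulo-/- thick ascending limb-like cells and 221 and 197 in wild type (-0.52 ± 0.31, edgeR adjusted p = 0.830). Ndufs6 was below wild type in both libraries in 4 classes, for example at 1012 and 999.6 in Gulo-/- thick ascending limb-like cells and 1328 and 1285 in wild type. Ndufa3 ran the other way and was above in 4 classes, at 1472 and 1229 in Gulo-/- proximal tubule-like cells and 1228 and 762 in wild type. None of these passed the test.

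Ndufa4, named for complex I but now assigned to complex IV, was at 2892 and 3115 in Gulo-/- proximal tubule-like cells and 3479 and 3447 in wild type (log2 -0.39 ± 0.28, edgeR adjusted p = 0.519). It was likewise lower in both Gulo-/- libraries in thick ascending limb-like cells, at 2977 and 3224 against 4277 and 3621 in wild type.

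In complex II, Sdhc, one of its membrane anchors, gave the lowest unadjusted p of the nuclear members in proximal tubule-like cells. It was at 368 and 441 CPM in Gulo-/- and 710 and 623 in wild type libraries, without overlap (log2 -0.91 ± 0.27, SE over 2 libraries per genotype, edgeR adjusted p = 0.185). DESeq2 did call it (adjusted p = 0.0353). In distal cells it was at 216 and 295 in Gulo-/- and 390 and 413 in wild type (-0.72 ± 0.30, edgeR adjusted p = 0.363). Macrophage and monocyte-like cells had 23.9 and 75.5 in Gulo-/- and 87.9 and 138 in wild type (-1.14 ± 0.48, edgeR adjusted p = 0.605). Sdhc lay below wild type in 4 of the 5 classes, endothelial-like cells being the exception with 92.4 and 131 in Gulo-/- and 99.7 and 188 in wild type. Sdhb, the iron-sulfur subunit, overlapped in proximal tubule-like cells at 927 and 942 in Gulo-/- and 1191 and 887 in wild type.

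In complex III, Uqcrfs1, the Rieske iron-sulfur protein, was at 646 and 888 in Gulo-/- proximal tubule-like cells and 1176 and 1018 in wild type (log2 -0.71 ± 0.29, SE over 2 libraries per genotype, edgeR adjusted p = 0.288). Uqcrc2, a core protein, was at 272 and 409 in Gulo-/- distal cells and 598 and 559 in wild type (-0.82 ± 0.29, edgeR adjusted p = 0.241). In thick ascending limb-like cells it was at 330 and 484 in Gulo-/- and 925 and 533 in wild type (-0.78 ± 0.32, edgeR adjusted p = 0.411). The small subunits Uqcr10 and Uqcr11 went the other way. Uqcr10 had 2982 and 2840.1 in Gulo-/- proximal tubule-like cells and 2622 and 2358 in wild type, and its log2 change in the fit was 0.04 (edgeR adjusted p = 0.956). Uqcr11 lay above wild type in 4 classes, for example at 3321 and 2975 in Gulo-/- thick ascending limb-like cells and 2672 and 2691 in wild type.

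In complex IV, abundant forms overlapped in some classes and lay above wild type in others. Cox6a1, the common form of subunit 6a, lay above in 3 classes, for example at 3766 and 3140 in Gulo-/- thick ascending limb-like cells and 2996 and 2538 in wild type (log2 0.33 ± 0.29, edgeR adjusted p = 0.941). Cox6c lay above in 2 classes and Cox4i1, Cox5b and Cox7c in 1 each, and none passed the test. Cox4i1, the common form of subunit 4, was at 6267 and 6134 in Gulo-/- thick ascending limb-like cells and 6751 and 5007 in wild type. Cox6c was at 5190 and 4797 in Gulo-/- proximal tubule-like cells and 4919 and 3417 in wild type. Cox5a was lower in distal cells, at 1307 and 1725 in Gulo-/- and 2449 and 2183 in wild type, with an unadjusted p under 0.05 and an edgeR adjusted p of 0.326. Cox7a2l, which helps join complexes III and IV into supercomplexes, was at 343 and 548 in Gulo-/- thick ascending limb-like cells and 743 and 674 in wild type (log2 -0.62 ± 0.31, edgeR adjusted p = 0.647).

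In complex V, of the 3 genes for the same ring subunit c, Atp5g1 and Atp5g2 had negative log2 changes in 4 and 5 of the 5 classes and Atp5g3 positive ones in all 5, none past the test. Atp5g1 was at 2456 and 3167 in Gulo-/- thick ascending limb-like cells and 4048 and 3903 in wild type (log2 -0.48 ± 0.29, SE over 2 libraries per genotype, edgeR adjusted p = 0.830). Atp5g3 was at 1899 and 1311 in Gulo-/- proximal tubule-like cells and 1273 and 909 in wild type, both Gulo-/- libraries higher. In endothelial-like cells Atp5g3 had 382 and 404 in Gulo-/- and 245 and 327 in wild type (log2 0.45 ± 0.24, edgeR adjusted p = 0.537). Atp5g2 lay below wild type in 3 classes and overlapped in proximal tubule-like cells at 1051 and 935 in Gulo-/- and 1039 and 870.0 in wild type. Atp5f1, the peripheral stalk subunit b, was at 718 and 1094 in Gulo-/- distal cells and 1366 and 1338 in wild type (-0.65 ± 0.28, edgeR adjusted p = 0.396).

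Over the 5 classes, 22 of the 75 nuclear members tested in each had negative log2 changes in all and 7 had positive ones (Atp5g3, Cox6a1, Cox6c, Ndufa3, Ndufb9, Uqcr10 and Uqcr11). The 5 classes come from the same 4 libraries and share their depth and free RNA, so they are not independent of each other.

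Genes that serve the chain were looked at as 5 lists, chosen with earlier results known, in which edgeR called 0 genes in any class and DESeq2 called 0 outside proximal tubule-like cells. For comparison, 1855 of the 11140 genes tested in the proximal tubule-like class had an unadjusted p under 0.05 with edgeR and 394 of 16992 were called by DESeq2. There the 15 citrate cycle genes, which feed the chain with electrons, had a median of -0.56 with 0 positive (4 with an unadjusted p under 0.05, 0 called by DESeq2). Of 77 mitochondrial ribosome genes, which make the 13 mitochondrial proteins, 6 were positive with a median of -0.48 (27 with an unadjusted p under 0.05, 2 called by DESeq2). Assembly factors had a median of -0.40 with 9 of 48 positive (10 with an unadjusted p under 0.05, 2 called by DESeq2). Carriers and the ATP synthase inhibitor, 6 genes, had -0.46 with 0 positive (2 with an unadjusted p under 0.05, 1 called by DESeq2). The 17 genes that control mitochondrial DNA, its transcription and its biogenesis had 0.01 with 9 positive (0 with an unadjusted p under 0.05, 0 called by DESeq2). In thick ascending limb-like and distal cells the citrate cycle medians were -0.39 and -0.36 and those of the ribosome list -0.17 and -0.29. In endothelial-like cells the citrate cycle median was -0.07 and that of the ribosome list -0.31.

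Methylation was read from the authors' deposited table of regions, which gives the mean level on side 1 and side 2 of their comparison without naming the genotype of either side, and without values per sample. It listed 146 regions for 55 of the nuclear members, of which 12 at 11 genes were annotated as promoters. Of those 12, 9 (75%) had the lower level on side 1, against 78.5% of all 7867 promoter regions. Over all annotations it was 93 of the 146 member regions (63.7%), against 53.8% of all 86510 regions, and for distal intergenic regions 39 of 67 (58.2%), against 41.3% of 36370. The region in the Atp5e promoter printed above, chr2:174464090-174464295, held 20 CpGs and had levels of 0.0807 on side 1 and 0.188 on side 2 in the authors' deposited table. All its 206 bases lie inside the printed window. Cox6a2 (0.518 on side 1, 0.775 on side 2) and Cox4i2 (0.658 and 0.870 on sides 1 and 2) had higher levels and the largest differences among member promoters in the authors' deposited table. Atp5e itself overlapped between genotypes in proximal tubule-like cells, at 2287 and 1899 CPM in Gulo-/- and 2505 and 1897 in wild type.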

How the data were processed

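The 4 single-cell matrices are raw counts of UMIs as deposited. No source used here gives the authors' counting tool. MACS2 2.1.2, Seurat 2.3.4 and build mm10 stand in the submitters' processing notes, without a role. The authors' deposited methylation table gives levels as a fraction, other values (CpG number, distance, difference) and an area score that no result uses. The authors' deposited marker table gives a natural log (ln) ratio, detection fractions and a p-value with cells as units. The m6A samples are not analysed here.

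Kept barcodes had at least 500 UMIs, 200 genes and at most 50% mitochondrial UMIs, the Scrublet scores (scanpy 1.11.5) expected at 0.8% per 1000 cells were removed (its own threshold marked 0 in wild type replicate 2), and libraries were clustered together (2000 variable genes, 30 components, 15 neighbours, leidenalg 0.10.2 at resolution 1). Clustering without the members gave 98.8% of cells the same class. The macrophage and monocyte-like class was less stable. It fell from 55 and 183 to 52 and 99 cells in Gulo-/- and from 39 and 160 to 33 and 91 in wild type. UMIs of a class were added up in each library and tested with edgeR 4.0.16 (TMM, filterByExpr, robust quasi-likelihood F test), with Benjamini-Hochberg adjustment over all genes and calls at an adjusted p under 0.05. DESeq2 1.42.0 was the alternative test. The interaction test had the library as a term. Both tests were checked on simulated data. Changes were simulated only in well-counted genes, so the check did not cover genes with as few UMIs as Cox6b2 in thick ascending limb-like and distal cells. The planned minimum of 50 cells per library was met only in endothelial-like and proximal tubule-like cells, so a minimum of 20 was used after seeing the data, which added classes with as few as 47, 48 and 39 cells. Levels of nuclear members are CPM (per 1000000 non-mitochondrial UMIs). Wilson intervals of 95% on summed shares were at most 0.597 percentage points wide and cover counting error only. Shares use all UMIs of a class, so deeper libraries are counted more precisely.

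Members and lists were chosen with earlier results of these data known. Named genes were the 13 mitochondrial members, every called member, the member with most UMIs and the one with the largest change per class and complex, alternative forms, the 3 lowest interaction p-values and members of the authors' marker table. Others (Ndufs6, Cox5a and members outside the spread in 4 classes) were named after their values were seen. Alternatives were other scalings, filters, blocks, clustering and each library left out.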

Additional observations from a re-analysis of the deposited data

Results flagged for a closer look

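The difference between cell classes in the genotype effect on Cox6b2 passed its own test (edgeR adjusted p = 0.00762 for the class-by-genotype interaction, F = 10.4). The log2 changes were -2.66 in thick ascending limb-like, -2.77 in distal convoluted and connecting tubule-like and -0.12 in proximal tubule-like cells, from 2 libraries per genotype.

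Barcodes over the limit of 50% mitochondrial UMIs, left out of the main comparisons, differed in the same direction for mt-Co1 and mt-Nd2. These barcodes come from the same libraries as the classes and are not independent of them. In these barcodes mt-Co1 made up 16.5% and 16.6% of mitochondrial UMIs in Gulo-/- libraries and 10.5% and 7.70% in wild type, means of 16.56% and 9.08%. mt-Nd2 made up 3.26% and 2.16% in Gulo-/- and 4.63% and 4.92% in wild type libraries.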

How the results depend on the processing

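Calls changed with the tool and the libraries. With DESeq2 1 member was called in proximal tubule-like cells, 1 in endothelial-like cells, 0 in thick ascending limb-like and 0 in distal cells. Without the low-count filter 2 were called in proximal tubule-like, 7 in endothelial-like and 6 in macrophage and monocyte-like cells. With a mitochondrial limit of 25% the count was 0 in thick ascending limb-like and 0 in distal cells, where Cox6b2 no longer passed the low-count filter and was not tested, with sex as a block 0 in thick ascending limb-like cells, and with shared barcodes kept 1 in endothelial-like cells. Same-numbered libraries share their depth (number 1 shallow, number 2 deep), and their deviations correlated at -0.05 to 0.18 over 2 pairs, so nothing shows that the number pairs animals. The replicate block gave 1 in endothelial-like cells (Ndufa4l2, edgeR adjusted p = 0.00828) and moved no other count of member calls. Leaving out 1 library gave 0 to 2 calls in distal, 0 to 1 in thick ascending limb-like, 0 to 7 in macrophage and monocyte-like cells and 0 to 9 interactions. Without Gulo-/- replicate 2 the 1 call in thick ascending limb-like cells was mt-Atp8. The 9 interactions came without wild type replicate 1. With classes of at least 50 cells, the 1 interaction called was that of Ndufa4l2. Of the 12 promoter regions at nuclear members in the authors' deposited table, 2 differed by at least 0.2 between the sides. Over 15 settings the Cox6b2 change ranged from -3.33 to -1.54 in thick ascending limb-like and from -2.94 to -2.48 in distal cells, and from -0.90 to 1.48 over 16 settings in proximal tubule-like cells. Nuclear medians ranged from -0.52 to -0.01 in proximal tubule-like, -0.35 to -0.08 in thick ascending limb-like and -0.38 to -0.17 in distal cells over 16 settings, and mitochondrial medians changed sign in all 3. Scaling moved the median of all genes by over 0.1 only without the filter (to 0.21 in distal, 0.22 in endothelial-like and 0.26 in thick ascending limb-like cells) and with DESeq2 (to -0.12 and -0.11 in distal and thick ascending limb-like cells). Calls among all genes ranged from 2 to 1011 in proximal tubule-like (22 as reported), 3 to 175 in thick ascending limb-like (72), 0 to 178 in distal (68), 0 to 424 in endothelial-like (52) and 0 to 162 in macrophage and monocyte-like cells (0). The cause of these shifts was not tested. Cox6b2, Ndufa4l2 and Cox4i2 rest on few UMIs, which limits their precision.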
